A study of Homo sapiens with 16 samples.

Results

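The centromere genes described here are CENPA, CENPC, CENPH, CENPI, CENPK, CENPM, CENPN, CENPT, CENPU and CENPW, 10 of the 31496 genes with counts. They were listed by symbol as genes of the constitutive centromere, and CENPT was chosen by its measured knockdown differences in these libraries, for rising while other cell division genes fell. That contrast was not uniform. At 48 h only 5 of the other 9 genes were below 0, and the kinetochore gene CENPE rose (log2 fold change 0.35). Because CENPT was chosen this way, its differences between knockdown and wild type are given as a description, with no test. The choice also drew on falls of other cell division genes in the same comparisons. The calls and adjusted p-values of the other 9 genes there, the F test between times among them, are therefore a description too. They are no independent support for a fall of these genes. All 10 genes passed the filter on low counts and are among the 19836 genes tested.

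HCT116 is a human colon cancer cell line. NORAD is a long noncoding RNA, and it was targeted by CRISPR interference, in which a dead Cas9 fused to a repressor is targeted to a promoter. The 6 groups were HCT116 cells labelled knockdown and wild type at 24 h (2 libraries each), at 48 h (3 each) and at 96 h (3 each). Every label carries the same treatment text, doxycycline at 0.5 µg/ml to induce the knockdown, so whether the wild-type cells also received it, and which cells they were, is not given. Neither the guide nor the number of clones is given. Polyadenylated RNA was sequenced in strand-specific libraries.

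The centromere is marked by nucleosomes that hold CENP-A, a variant of histone H3. On them sits the constitutive centromere-associated network (CCAN), which stays at centromeres through the cell cycle. CENP-C and CENP-N bind the CENP-A nucleosome. CENP-H, CENP-I, CENP-K and CENP-M form a subcomplex, CENP-U belongs to the CENP-O group, and CENP-T and CENP-W are histone-fold proteins that pair with each other. CENP-C and CENP-T each recruit the outer kinetochore, whose NDC80 complex holds spindle microtubules in mitosis.

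Library totals lay between 28391784 and 51853876 estimated counts, and levels are CPM, counts brought to a common library total, on library sizes scaled by edgeR's trimmed mean of M-values (TMM). No label names separate cultures for the replicates, so each p-value weighs only library-to-library spread, part of which may be technical. At 48 h the knockdown library with replicate number 3 scored -11.8 on the third principal component of log2 CPM, against 63.6 and 71.7 for the other 2 knockdown libraries and -54.9 to -18.6 for the wild-type libraries. Epithelial genes were high in every library (EPCAM at 206 CPM or more and KRT8 at 1563 CPM or more), whereas CDX1 did not exceed 0.0985 CPM. The 6 epithelial markers summed to 6974 to 7319 CPM in libraries labelled knockdown and 7153 to 7428 CPM in wild type at 24 h, to 4392 to 4777 CPM in knockdown and 6109 to 6406 CPM in wild type at 48 h, and to 5303 to 5501 CPM in knockdown and 4453 to 4888 CPM in wild type at 96 h. The summed fibroblast markers, nearly all COL1A1, spanned 85.7 to 91.5 CPM in libraries labelled knockdown and 55.9 to 68.5 CPM in wild type at 24 h, 60.9 to 88.1 CPM in knockdown and 31.6 to 33.0 CPM in wild type at 48 h, and 44.0 to 48.3 CPM in knockdown and 38.8 to 48.9 CPM in wild type at 96 h. COL3A1 and LUM stayed at 0.169 CPM or less. Mitochondrial transcripts held 6.08% and 6.10% of counts in libraries labelled knockdown, against 4.89% and 5.05% in wild type, at 24 h, and 12.3% to 13.8% in knockdown and 10.4% to 11.1% in wild type at 48 h. The part of these 3 measures in the results was not tested. Blood markers summed to 1.27 CPM or less and endothelial markers to 3.71 CPM or less.

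NORAD itself was not lower in the 24 h libraries labelled knockdown, with 229.7 and 188 CPM against 179 and 201 CPM in wild type. At 48 h it was at 21.8, 18.1 and 24.8 CPM in knockdown and at 156, 155 and 162 CPM in wild type. At 96 h it was at 79.9, 72.7 and 66.2 CPM in knockdown and at 181, 184 and 183 CPM in wild type. On the log2 scale NORAD in knockdown over wild type was 0.14 (SE 0.117, edgeR adjusted p = 0.523), -2.88 (SE 0.105, edgeR adjusted p = 1.27e-13) and -1.33 (SE 0.0978, edgeR adjusted p = 5.25e-08) at the 3 times. Every direction given for 24 h is therefore that of libraries labelled knockdown.

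CENPT lies at chr16:67828157-67847811 on the minus strand (GRCh38, GENCODE 29), CENPA at chr2:26764289-26801067 on the plus strand and CENPN at chr16:81006498-81033114 on the plus strand. CENPC (chr4:67468748-67545606), CENPU (chr4:184694618-184734133), CENPK (chr5:65517766-65563171) and CENPM (chr22:41938721-41947164) lie on minus strands. CENPH (chr5:69189548-69210357), CENPI (chrX:101098218-101163681) and CENPW (chr6:126340174-126348875) lie on plus strands. RefSeq promoter windows (GRCh38.p14, 250 bases before to 50 bases after the start site) were found for 8 of the 10 genes, all but CENPH and CENPM. Those of CENPT (chr16:67847644-67847943), CENPA (chr2:26785806-26786105) and CENPN (chr16:81006964-81007263) are printed. The RNA of CENPT and that of the other 2 genes went opposite ways at 24 h and 96 h, as it did for all of the other 9. Among the windows found, only those of CENPA and CENPN held a match to every element named next. Capitals mark matches, on either strand, to the CHR element TTTGAA, the CCAAT box CCAAT and the E2F cores GCGGGAA and GCGCGAA, which are known from promoters of cell cycle genes.
CENPT: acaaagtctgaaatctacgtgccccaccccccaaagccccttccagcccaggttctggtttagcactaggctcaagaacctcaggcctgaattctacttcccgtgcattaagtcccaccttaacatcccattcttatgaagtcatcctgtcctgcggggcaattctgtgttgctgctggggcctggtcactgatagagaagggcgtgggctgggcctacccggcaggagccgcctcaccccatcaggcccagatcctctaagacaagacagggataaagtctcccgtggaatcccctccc
CENPA: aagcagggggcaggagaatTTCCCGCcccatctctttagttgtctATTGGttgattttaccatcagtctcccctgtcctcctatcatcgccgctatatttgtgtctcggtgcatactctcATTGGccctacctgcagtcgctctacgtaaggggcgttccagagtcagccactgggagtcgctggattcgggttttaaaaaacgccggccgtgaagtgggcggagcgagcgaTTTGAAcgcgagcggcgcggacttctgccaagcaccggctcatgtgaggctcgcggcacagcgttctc
CENPN: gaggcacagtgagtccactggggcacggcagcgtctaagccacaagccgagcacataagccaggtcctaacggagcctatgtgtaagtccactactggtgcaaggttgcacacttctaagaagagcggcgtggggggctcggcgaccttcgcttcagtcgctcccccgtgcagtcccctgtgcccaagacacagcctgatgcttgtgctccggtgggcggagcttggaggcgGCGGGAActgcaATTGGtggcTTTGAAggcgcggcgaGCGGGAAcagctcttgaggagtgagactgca

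The CENPT window held none of the 3 elements, nor did that of CENPI. The CENPI window (chrX:101100808-101101107) lies inside the annotated gene, which begins at 101098218, so it does not cover the gene's annotated 5′ end. The windows of CENPA and CENPN also begin inside their annotated genes. The CENPT window lies at the RefSeq start site, 118 bp from the gene's 5′ end. Most CENPT counts, 76.2% to 98.4% by group mean, were on transcripts that begin in or after the start-codon exon. That exon begins 13711 bp from the gene's 5′ end, so the window does not cover the annotated first bases of those transcripts. Where their RNA began was not measured. The CENPA window held 1 CHR, 2 CCAAT and 1 E2F match, and the CENPN window 1 CHR, 1 CCAAT and 2 E2F matches. Over the 8 windows, the CHR was in 3, the CCAAT box in 6 and an E2F core in 3. Of all 35116 promoter windows in the table, 15.2% held the CHR, 34.6% the CCAAT box and 8.54% an E2F core. The letters are a description of these windows and not evidence of a bound factor.

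CENPT RNA was higher in every knockdown library than in every wild-type library of its time. At 24 h it was at 112 and 142 CPM in the libraries labelled knockdown and at 48.0 and 46.8 CPM in wild type. At 48 h it was at 304, 289.7 and 240.5 CPM in knockdown and at 87.4, 89.6 and 78.4 CPM in wild type. At 96 h the values were 106, 113 and 112 CPM in knockdown and 67.5, 63.8 and 71.0 CPM in wild type. The groups did not overlap at any time, and the gap was widest at 48 h and narrowest at 96 h. Every knockdown library was above every wild-type library for 26.8%, 16.9% and 16.2% of all genes tested at the 3 times. Mean CPM was 127 ± 21.8 in libraries labelled knockdown and 47.4 ± 0.893 in wild type at 24 h (SD, n = 2 each), a ratio of 2.68. It was 278 ± 33.3 in knockdown and 85.1 ± 5.93 in wild type at 48 h (SD, n = 3 each), a ratio of 3.27. At 96 h it was 110.3 ± 3.86 in knockdown and 67.4 ± 3.63 in wild type (SD, n = 3 each), a ratio of 1.64. The edgeR log2 fold changes were 1.42 (SE 0.117) at 24 h, 1.71 (SE 0.0945) at 48 h and 0.71 (SE 0.093) at 96 h. Without the knockdown library that stood apart at 48 h, the log2 fold change at that time was 1.80.

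**Figure D1:**
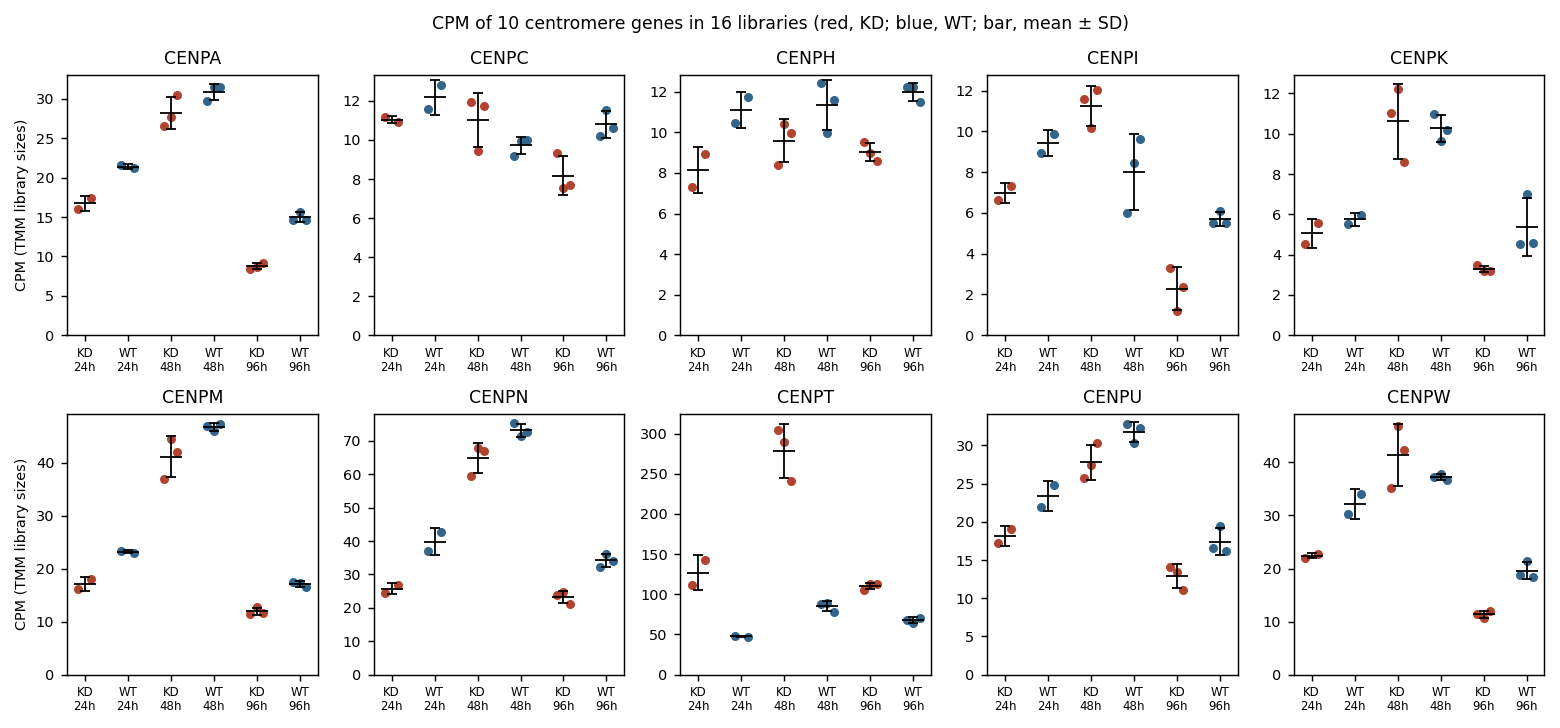
CPM (y axis, TMM library sizes) of the 10 centromere genes in each of the 16 libraries (points; red, knockdown; blue, wild type), with the mean and SD of each group (bars). CENPT reaches 304 CPM in knockdown at 48 h against at most 89.6 CPM in wild type, while CENPA, CENPM, CENPN and CENPW lie lower in knockdown than in wild type at 24 h and 96 h.

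Among the other 9 genes, falls were called at 24 h and 96 h. At 24 h, 6 of the 9 fell in libraries labelled knockdown (CENPA, CENPH, CENPM, CENPN, CENPU and CENPW) and 3 did not pass, where 12.4% of all genes tested fell (edgeR quasi-likelihood test, Benjamini-Hochberg adjusted p below 0.05). At 48 h none of the 9 passed in either direction, where 18.5% of all genes fell and 14.8% rose. At an unadjusted p below 0.05, edgeR gave 3 of the 9 at 48 h (CENPH, CENPM and CENPN, all lower), and DESeq2 passed 0 of the 9 after adjustment. At 96 h all 9 fell, where 5.15% of all genes fell. Their median log2 fold change was -0.43 at 24 h, -0.13 at 48 h and -0.56 at 96 h, beside -0.02, 0.06 and -0.01 over all genes tested. Averaged over the 3 times, 8 of the 9 fell, CENPC being the exception (log2 fold change -0.12, edgeR adjusted p = 0.189), where 21.0% of all genes fell and 14.9% rose. Under total-count and upper-quartile scaling 6 of the 9 fell in this mean, CENPI and CENPK losing their calls. With no filter 7 fell, and with a library left out 6 to 8. The mean takes in the 24 h libraries, where NORAD was not lower.

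The 24 h calls were the least firm: under total-count scaling 1 of the 9 fell, and leaving out 1 of the 24 h libraries left 2 or 3 falls. Without the knockdown library that stood apart, CENPU passed as lower at 48 h (-0.26 on the log2 scale, edgeR adjusted p = 0.0414), and without knockdown replicate 2 CENPM did (-0.24, edgeR adjusted p = 0.0323). In the other direction, CENPC passed as higher at 48 h under total-count scaling (0.32, edgeR adjusted p = 0.0405) and upper-quartile scaling (0.30, edgeR adjusted p = 0.0361), each of which gave 2 rises and 0 falls of the 9 at that time. The second of these was CENPW, and CENPI rose when only the 48 h libraries were fitted. The CENPU fall at 24 h (-0.36, edgeR adjusted p = 0.0471) was lost under all other scalings tried, under DESeq2, with no filter and with protein-coding transcripts only. In bulk RNA, fewer cells in a cycle phase and less RNA per cell cannot be told apart.

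**Figure D2:**
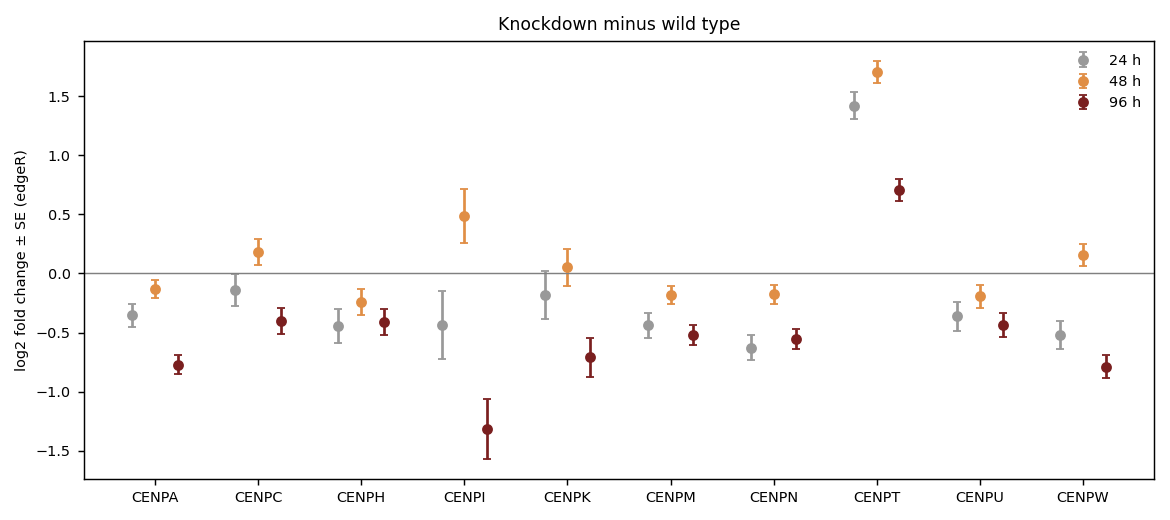
Log2 fold change of knockdown over wild type (y axis, edgeR, bars are SE) for each centromere gene at 24 h, 48 h and 96 h. CENPT alone is above 0 at all 3 times in this set (1.42, 1.71 and 0.71), and the other 9 are below 0 at 24 h and at 96 h.

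CENPA, the histone variant that marks the centromere, was at 16.1 and 17.4 CPM in libraries labelled knockdown and at 21.6 and 21.2 CPM in wild type at 24 h. By 48 h CENPA was at 26.5, 27.8 and 30.5 CPM in knockdown and at 29.8, 31.5 and 31.5 CPM in wild type. At 96 h it was at 8.46, 8.66 and 9.23 CPM in knockdown and at 14.7, 15.7 and 14.6 CPM in wild type. The groups overlapped at 48 h only, and at 96 h CENPA fell by 0.77 on the log2 scale (SE 0.0824, edgeR adjusted p = 2.67e-06).

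CENPN, which reads the CENP-A nucleosome, was at 24.6 and 26.9 CPM in libraries labelled knockdown and at 36.9 and 42.6 CPM in wild type at 24 h. CENPN at 48 h was at 59.5, 67.9 and 67.1 CPM in knockdown and at 75.4, 71.5 and 72.5 CPM in wild type. At 96 h it was at 23.8, 24.8 and 21.1 CPM in knockdown and at 32.3, 36.1 and 34.2 CPM in wild type. Every knockdown library was below every wild-type library at each time, as for 32.9%, 20.3% and 15.6% of all genes tested at 24 h, 48 h and 96 h, and CENPN fell at 24 h (log2 fold change -0.63, SE 0.103, edgeR adjusted p = 0.00026) and at 96 h (-0.56, SE 0.0834, adjusted p = 0.000114 by edgeR). CENPC, the other reader of that nucleosome and a scaffold of the inner kinetochore, was at 7.53 to 9.32 CPM in knockdown and 10.2 to 11.6 CPM in wild type at 96 h, and fell there (log2 fold change -0.40, SE 0.111, edgeR adjusted p = 0.0216). That call was lost when knockdown replicate 2 or 3 or wild-type replicate 2 or 3 at 96 h was left out, and with protein-coding transcripts only (-0.62, edgeR adjusted p = 0.294).

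CENPW, the histone-fold partner of CENP-T, did not follow CENPT. It was at 22.1 and 22.8 CPM in libraries labelled knockdown and at 30.2 and 34.1 CPM in wild type at 24 h. CENPW at 48 h was at 35.1, 46.9 and 42.3 CPM in knockdown, a range that enclosed the wild-type values of 37.3, 37.8 and 36.6 CPM. At 96 h it was at 11.4, 10.7 and 11.9 CPM in knockdown and at 18.8, 21.4 and 18.4 CPM in wild type. CENPW fell at 24 h (log2 fold change -0.52, SE 0.117, edgeR adjusted p = 0.0035) and at 96 h (-0.79, SE 0.0984, adjusted p = 1.47e-05 by edgeR). Its log2 fold change at 48 h was 0.15 (SE 0.0931, edgeR adjusted p = 0.211), and it passed as higher there under total-count scaling (log2 fold change 0.29), upper-quartile scaling (0.27), with protein-coding transcripts only (0.25) and without knockdown replicate 1 at 48 h (0.26).

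Within the CENP-H, CENP-I, CENP-K and CENP-M group, CENPI, a scaffold subunit, had the largest fall of the 9 at 96 h. It was at 3.30, 1.18 and 2.38 CPM in knockdown and at 5.49, 6.08 and 5.53 CPM in wild type at 96 h (log2 fold change -1.32, SE 0.254, edgeR adjusted p = 0.00336). At 48 h the CENPI order was the other way, at 11.6, 10.2 and 12.03 CPM in knockdown and 5.98, 8.44 and 9.63 CPM in wild type, without overlap, and that difference did not pass (log2 fold change 0.49, SE 0.230, edgeR adjusted p = 0.118). It did pass when only the 48 h libraries were fitted (0.51, edgeR adjusted p = 0.0445) and without knockdown replicate 1 or 2 at 96 h. The same order of all libraries at 48 h was seen in 16.9% of all genes tested. CENPM was at 16.1 and 18.0 CPM in libraries labelled knockdown and at 23.4 and 23.0 CPM in wild type at 24 h, and it fell at 24 h (-0.44, SE 0.102, edgeR adjusted p = 0.00432) and 96 h (-0.52, SE 0.0839, edgeR adjusted p = 0.000243).

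CENPH was at 8.60 to 9.51 CPM in knockdown and at 11.5 to 12.3 CPM in wild type at 96 h (log2 fold change -0.41, SE 0.112, edgeR adjusted p = 0.0198). CENPK was at 3.19 to 3.47 CPM in knockdown and at 4.51 to 7.03 CPM in wild type at 96 h (-0.71, SE 0.165, edgeR adjusted p = 0.00643). CENPU, of the CENP-O group, was at 11.1 to 14.1 CPM in knockdown and at 16.2 to 19.5 CPM in wild type at 96 h (-0.44, SE 0.101, edgeR adjusted p = 0.00651). These 3 genes fell at 96 h without overlap of the groups. Of all genes tested, 5.15% fell at 96 h, and in 15.6% every knockdown library was below every wild-type library. Each of the 3 genes lost its call without some single 96 h library, wild-type replicate 2 in all 3 cases.

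The knockdown differences of 4 of the 9 genes changed between times, where 9.44% of all genes did (edgeR F test of the 3 differences, adjusted p below 0.05). These were CENPW (edgeR adjusted p = 0.000429), CENPA (0.003), CENPI (0.0115) and CENPN (0.0351). In CENPA, CENPI and CENPW the fall at 96 h was the largest of the 3 differences, and CENPN had its smallest difference at 48 h.

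Set against length, CENPT stood first of the 10 genes in all 3 knockdown groups. Counts divided by transcript length and scaled to the same sum in every library, as in TPM, were 125 ± 18.7 for CENPT in libraries labelled knockdown and 38.7 ± 2.22 in wild type at 24 h (SD, n = 2 each). They were 179 ± 29.3 in knockdown and 47.5 ± 6.99 in wild type at 48 h, and 73.1 ± 3.31 in knockdown and 45.7 ± 3.58 in wild type at 96 h (SD, n = 3 each). In knockdown the next gene was CENPW at 66.7 (24 h) and 80.3 (48 h) and CENPN at 25.9 (96 h), and no library of CENPT overlapped with them. In wild type CENPT was the third at 24 h, after CENPW (80.8) and CENPN (55.9), and the fourth at 48 h, where its range overlapped with that of CENPM (50.7). At 96 h it was the first in wild type, with a range that overlapped with that of CENPW (40.2). CENPC, CENPI and CENPK held the last 3 places in 5 of the 6 groups, and in knockdown at 48 h CENPH (8.34) stood below CENPK (10.4), with ranges that overlapped.

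CENPT has 34 annotated transcripts in the table, 31 of them with counts, and they differ at the 5′ end. The annotated start codon lies 13952 bp from the 5′ end of the gene, in an exon that spans 13711 to 14061 bp. Of the 34, 16 have an exon upstream of the start-codon exon and 18 begin in it or after it. This division was chosen after the values were seen, so it carries no test.

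Transcripts with an upstream exon were at 21.8 and 29.2 CPM in libraries labelled knockdown and at 2.33 and 1.94 CPM in wild type at 24 h. At 48 h they were at 74.5, 58.5 and 64.3 CPM in knockdown and at 5.46, 3.87 and 2.04 CPM in wild type. At 96 h they were at 22.3, 21.5 and 20.5 CPM in knockdown and at 1.69, 1.25 and 0.312 CPM in wild type. The ratio of means was 11.9 at 24 h, 17.4 at 48 h and 19.8 at 96 h. In wild type this class had 53 and 62 estimated counts in the 24 h libraries. It had 74 to 180 per wild-type library at 48 h and 13 to 81 at 96 h. The size of these ratios and their order over time are therefore uncertain. The transcripts that begin in or after the start-codon exon were at 102 ± 16.5 CPM in libraries labelled knockdown and 45.3 ± 0.608 CPM in wild type at 24 h (SD, n = 2 each), a ratio of 2.24. They were at 212 ± 31.3 CPM in knockdown and 81.3 ± 4.71 CPM in wild type at 48 h, and at 88.9 ± 4.67 CPM in knockdown and 66.3 ± 4.13 CPM in wild type at 96 h (SD, n = 3 each), ratios of 2.61 and 1.34. So the 2 classes were both higher in knockdown, by unequal factors.

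**Figure D3:**
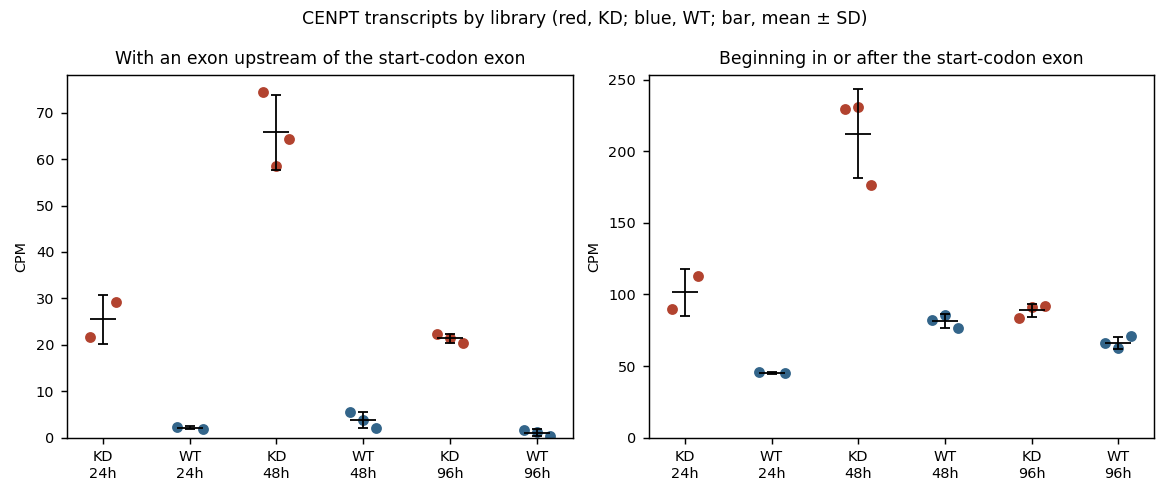
CPM (y axis) of CENPT transcripts with an exon upstream of the start-codon exon (left) and of those that begin in or after it (right) in each library (points; red, knockdown; blue, wild type), with group mean and SD (bars). The left class is at 20.5 CPM or more in every knockdown library and at 5.46 CPM or less in every wild-type library.

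The upstream-exon class held 20.0 ± 0.714% of CENPT counts in libraries labelled knockdown and 4.50 ± 0.506% in wild type at 24 h (SD, n = 2 each). It held 23.8 ± 3.34% in knockdown and 4.39 ± 1.83% in wild type at 48 h, and 19.5 ± 1.49% in knockdown and 1.63 ± 1.07% in wild type at 96 h (SD, n = 3 each). Of the summed CENPT difference in CPM, it made up 29.3% at 24 h, 32.1% at 48 h and 47.5% at 96 h. CENPT-203, whose first base lies 118 bp from the gene's 5′ end at the RefSeq start site of the printed window, had 212 and 325 estimated counts in libraries labelled knockdown, against 0 and 0 in wild type, at 24 h. It had 505, 503 and 423 counts in knockdown and 2, 5 and 7 in wild type at 48 h, and 227, 218 and 151 counts in knockdown and 0, 13 and 3 in wild type at 96 h. CENPT-229, which starts 59 bp from the 5′ end, had 129, 131 and 143 counts in knockdown and 0 in each wild-type library at 48 h.

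The long CENPT-202, a protein-coding transcript of 2200 nucleotides and 14 exons, had 950, 694 and 1196 counts in knockdown and 77, 115 and 32 in wild type at 48 h. It belongs to the upstream-exon class, but its first base lies 12473 bp from the gene's 5′ end. The class is therefore not a measure of starts at the printed window alone. CENPT-208, another full-length coding transcript (16 exons), was uneven between knockdown libraries, with 789, 866 and 159 counts in knockdown and 81, 0 and 0 in wild type at 48 h. Estimated counts divide reads between overlapping transcripts by a model, so the split between such isoforms is less certain than the sum over them.

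**Figure D4:**
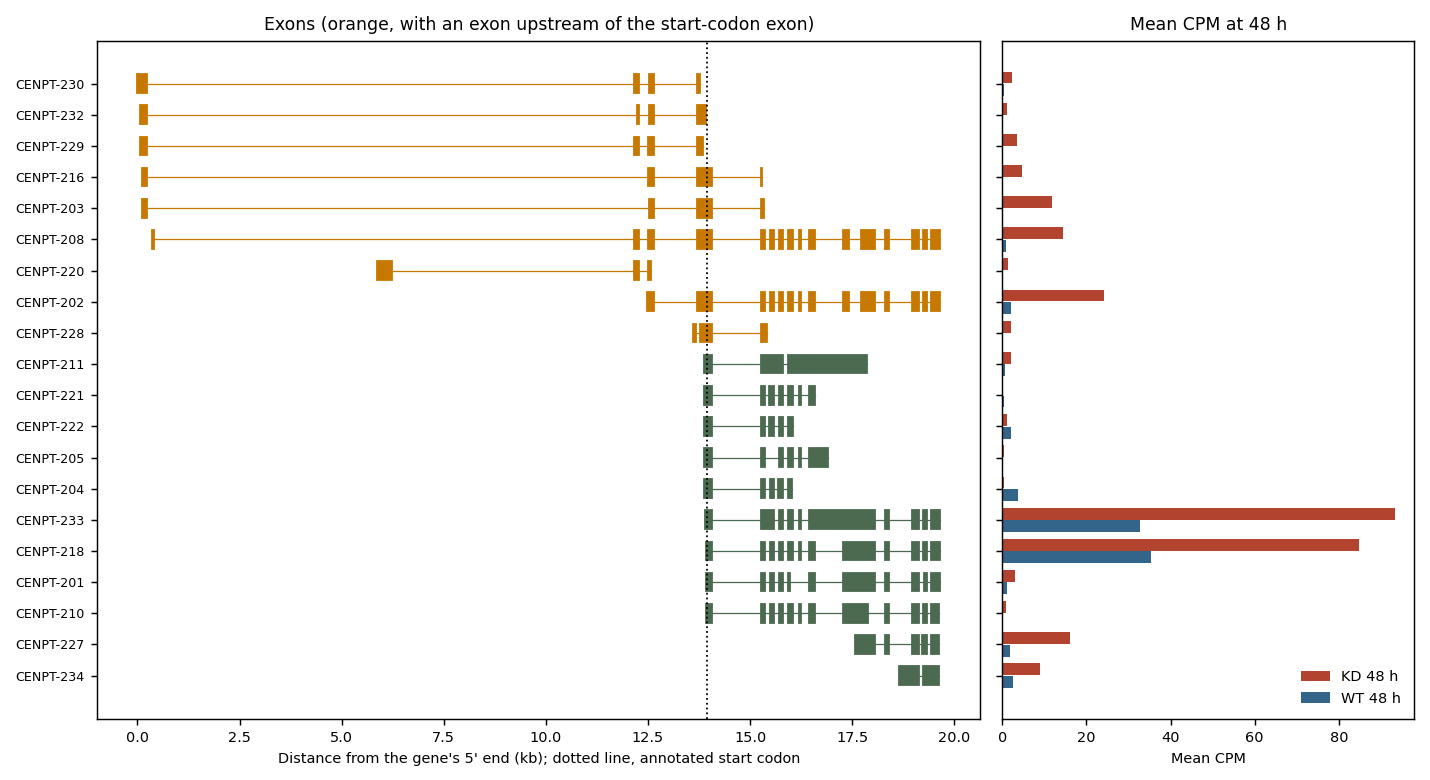
Exons of the CENPT transcripts with a mean of at least 0.5 CPM in any group, by distance from the gene's 5′ end in kb (left; dotted line, annotated start codon), and their mean CPM at 48 h (right; red, knockdown; blue, wild type). Transcripts with an upstream exon (orange) are at 2.11 CPM or less each in wild type, and CENPT-233 and CENPT-218 hold the most counts in both groups (93.3 and 84.7 CPM in knockdown, 32.8 and 35.5 CPM in wild type).

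Most CENPT counts were on transcripts annotated with a retained intron. These held 78.8%, 75.8% and 76.1% of CENPT counts in knockdown and 84.0%, 88.0% and 84.5% in wild type at 24 h, 48 h and 96 h. CENPT-218 keeps 1 intron of 301 bp and CENPT-233 keeps 3, of 139, 667 and 301 bp. CENPT-218 was at 49.2, 84.7 and 39.6 CPM in knockdown and at 18.9, 35.5 and 23.2 CPM in wild type at the 3 times. CENPT-233 was at 39.5, 93.3 and 36.2 CPM in knockdown and at 16.9, 32.8 and 28.9 CPM in wild type.

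Transcripts annotated as protein coding held 13.99%, 20.0% and 15.97% of CENPT counts in knockdown and 3.05%, 4.08% and 1.19% in wild type at 24 h, 48 h and 96 h. Those annotated for nonsense-mediated decay held 2.38%, 0.982% and 5.16% in knockdown and 12.01%, 7.46% and 13.9% in wild type. CENPT-204, annotated for decay, had 21, 17 and 1 counts in knockdown and 125, 210 and 57 in wild type at 48 h, so it was lower in knockdown while the gene was higher. Summed over protein-coding transcripts alone, the CENPT log2 fold change was 3.69 at 24 h, 4.08 at 48 h and 4.44 at 96 h. The wild-type side of these values rests on few counts. CENPT-202, the largest coding transcript in wild type at 24 h and 96 h, had 38 and 17 counts there at 24 h and 60, 37 and 0 at 96 h. The size of these fold changes and their order over time are therefore uncertain. Over whole libraries, retained-intron transcripts held 5.58% and 6.04% of counts in libraries labelled knockdown, against 5.17% and 4.93% in wild type, at 24 h. They held 5.73%, 5.29% and 4.18% in knockdown and 4.05%, 4.26% and 4.22% in wild type at 48 h, and their part in the CENPT result was not tested.

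For the other 9 genes no change of transcript shares between knockdown and wild type passed. By edgeR's diffSpliceDGE with Simes' method, 0 of the 9 passed at any of the 3 times (adjusted p from 0.153), where 1.56%, 4.07% and 1.53% of genes passed at 24 h, 48 h and 96 h. By limma on log ratios of a transcript to its gene's remaining transcripts, 0 of the 7 that could be tested passed, where 0.535%, 0.341% and 0.0876% did. At an unadjusted p below 0.05, diffSpliceDGE gave CENPM at 24 h and 96 h and CENPK at 96 h, and limma gave CENPA at 24 h and CENPI at 96 h. CENPI and CENPW had all counts on protein-coding transcripts in every library. Over libraries the protein-coding share was 93.9% to 99.0% in CENPM, 87.4% to 99.4% in CENPH and 17.3% to 71.2% in CENPC. CENPU had 39.6% to 55.3% on protein-coding transcripts and 40.3% to 53.6% on CENPU-205, annotated for nonsense-mediated decay.

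All 13 annotated genes within 100 kb of CENPT that were tested are given by counts. At 24 h 2 rose and 3 fell, at 48 h 5 rose and 5 fell, and at 96 h 2 rose and the rest did not pass, where 5.14%, 14.8% and 5.35% of all genes rose and 12.4%, 18.5% and 5.15% fell (edgeR, adjusted p below 0.05). The log2 fold changes at 96 h spanned -0.46 to 0.37. None of the 13 reached the CENPT log2 fold change at its own time, the highest being NRN1L at 24 h and 48 h (1.02 and 1.31, neither past the threshold, at 0.470 CPM in knockdown and 0.189 CPM in wild type at 48 h) and NUTF2 at 96 h.

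NUTF2, a nuclear import gene on the opposite strand, overlaps the 5′ part of CENPT by 1080 bp. It was at 253.5 ± 10.3 CPM in libraries labelled knockdown and 212 ± 3.98 CPM in wild type at 24 h (SD, n = 2 each), and it rose at 24 h, 48 h and 96 h by log2 fold changes of 0.26, 0.31 and 0.37 (edgeR adjusted p = 0.0306, 0.00109 and 0.000672). THAP11, a transcription factor gene that lies within CENPT on the opposite strand, fell at 24 h (-0.33, edgeR adjusted p = 0.0453) and 48 h (-0.93, edgeR adjusted p = 2.06e-07). TSNAXIP1, which overlaps the 3′ part by 3992 bp, rose at 48 h (0.81, edgeR adjusted p = 0.00456). Whether strand was used in counting is not given, so reads of these overlaps cannot be assigned with certainty.

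In wild-type cells, a comparison that the choice of CENPT did not use, most of the 10 genes rose between 24 h and 48 h and fell by 96 h. From 24 h to 48 h, 6 of the 10 rose and 1 fell, where 22.5% and 22.1% of all genes did. From 48 h to 96 h, 7 of the 10 fell and none rose, where 22.7% fell and 23.7% rose. Between 24 h and 96 h, 5 fell and 1, CENPT, rose, where 19.1% and 16.2% did.

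CENPM had mean levels of 23.2, 46.7 and 17.1 CPM in wild type at 24 h, 48 h and 96 h, with log2 changes of 1.01 (SE 0.0935, edgeR adjusted p = 2.18e-08) from 24 h to 48 h and -1.45 (SE 0.0817, edgeR adjusted p = 1.87e-11) from 48 h to 96 h. CENPN, at 39.8, 73.1 and 34.2 CPM, changed by 0.88 (SE 0.0942, edgeR adjusted p = 1.63e-07) and then by -1.10 (SE 0.0821, edgeR adjusted p = 8.24e-10). CENPA, at 21.4 and 30.9 CPM at 24 h and 48 h and 14.6 to 15.7 CPM at 96 h, changed by 0.53 (SE 0.0897, edgeR adjusted p = 5.41e-05) and then by -1.04 (SE 0.0791, edgeR adjusted p = 9.94e-10). All 3 genes thus had their highest wild-type level at 48 h.

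CENPK rose by 0.84 and then fell by 0.93 on the log2 scale, and CENPU rose by 0.44 and then fell by 0.87. The CENPU rise was lost with protein-coding transcripts only (0.34, edgeR adjusted p = 0.0993). Without wild-type replicate 1 at 24 h that rise was 0.37. CENPW did not pass from 24 h to 48 h (0.21, edgeR adjusted p = 0.114) and fell by 0.93 from 48 h to 96 h. CENPH did not pass in any of the 3 wild-type comparisons (0.03, 0.08 and 0.11, edgeR adjusted p = 0.878, 0.578 and 0.533). CENPC fell from 24 h to 48 h (log2 change -0.33, edgeR adjusted p = 0.0395), a call lost under DESeq2 (adjusted p = 0.061), with no filter (edgeR adjusted p = 0.11), with protein-coding transcripts only (edgeR adjusted p = 0.536), and without any 1 of the 5 wild-type libraries involved or of the 2 knockdown libraries at 24 h. CENPI fell between 24 h and 96 h (-0.72, edgeR adjusted p = 0.0434), a call lost when any wild-type library of either time was left out, without some libraries of other groups, with no filter (edgeR adjusted p = 0.106) and under total-count scaling (edgeR adjusted p = 0.0527).

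CENPT in wild type was at 47.4, 85.1 and 67.4 CPM at 24 h, 48 h and 96 h. It rose by 0.84 from 24 h to 48 h (SE 0.108, edgeR adjusted p = 1.86e-06), fell by 0.34 from 48 h to 96 h (SE 0.093, edgeR adjusted p = 0.00501) and was higher at 96 h than at 24 h by 0.51 (SE 0.107, edgeR adjusted p = 0.000789). The fall from 48 h to 96 h was -0.26 under total-count scaling (edgeR adjusted p = 0.068), -0.24 under upper-quartile scaling (edgeR adjusted p = 0.0815) and -0.16 under abundance-dependent scaling (edgeR adjusted p = 0.264), and it also missed the threshold without wild-type replicate 2 at 48 h. When only protein-coding transcripts were summed, the rise from 24 h to 48 h was 1.21 and did not pass (edgeR adjusted p = 0.124). The change between 24 h and 96 h was then -0.86 (edgeR adjusted p = 0.369). Whether CENPT differed from the other genes over time was not tested.

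**Figure D5:**
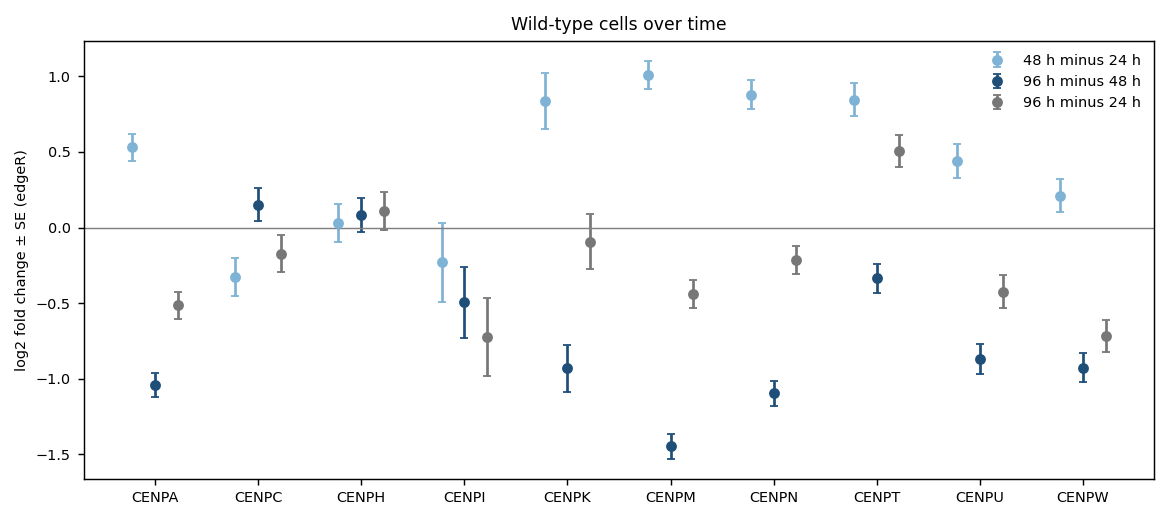
Log2 change (y axis, edgeR, bars are SE) of the 10 centromere genes in wild-type cells from 24 h to 48 h, from 48 h to 96 h and from 24 h to 96 h. CENPM, CENPN and CENPA move up and then down (1.01 and -1.45 in CENPM), and CENPT is the only gene of the 10 that passed as higher at 96 h than at 24 h (0.51).

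Transcript shares in wild type between 24 h and 96 h passed for CENPK by diffSpliceDGE (adjusted p = 0.00904) and not by limma (adjusted p = 0.101), where 8.79% and 13.8% of genes passed. CENPW passed by limma (adjusted p = 0.0129) and not by diffSpliceDGE (adjusted p = 0.691). Its CENPW-202 held 34.4% of counts at 24 h and 24.8% at 96 h in wild type, and CENPW-203 held 17.5% and 32.5%. CENPT did not pass by either test (adjusted p = 0.0522 by diffSpliceDGE and 0.245 by limma).

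Over the 16 libraries, log2 CPM of CENPA, CENPI, CENPK, CENPM, CENPN, CENPU and CENPW moved together, with a median Pearson r of 0.777 to 0.940 between each of them and the other genes. CENPC (median r 0.414) and CENPH (0.296) were less alike, and CENPT had r between -0.524 (CENPH) and 0.357 (CENPK) with the others. The libraries share group and time differences, so these values are a description. The 5 genes most like CENPT among 11043 others were DEDD (r 0.951), CYB561D1 (0.949), PPM1K (0.931), HRH1 (0.927) and CHRNB1 (0.919) over the same 16 libraries. Their log2 fold changes in knockdown at 48 h were 0.37, 0.40, 0.78, 0.70 and 0.75, beside 1.71 for CENPT. The 5 most like the mean of the other 9 were NUF2 (0.988), NUSAP1 (0.987), NDC80 (0.986), SPDL1 (0.984) and KIF11 (0.983), of which NUF2 and NDC80 encode subunits of the NDC80 complex.

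Of the other 7 CCAN genes, 3 fell at 24 h, 3 at 48 h and 3 at 96 h, none rose, and the median log2 fold changes were -0.35, -0.18 and -0.31. Of all genes tested, 12.4%, 18.5% and 5.15% fell at these times and 5.14%, 14.8% and 5.35% rose. CENPX and CENPS, which join CENP-T and CENP-W in a histone-fold complex, fell at 24 h (-0.60 and -0.45) and at 48 h (-0.66 and -0.37). CENPO fell at all 3 times (-0.38, -0.24 and -0.50).

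Genes for CENP-A deposition and alpha-satellite binding gave 4, 5 and 4 falls of 7 at 24 h, 48 h and 96 h and no rise, where 12.4%, 18.5% and 5.15% of all genes fell. HJURP, the CENP-A chaperone, fell at 24 h (-0.38, SE 0.0867) and 96 h (-0.61, SE 0.0713), and MIS18A, which primes centromeres for deposition, fell at all 3 times (-0.72, -0.36 and -0.49). CENPB, which binds alpha-satellite DNA, fell at 48 h (-0.24).

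Outer kinetochore genes of the KNL1, MIS12 and NDC80 complexes gave 5, 2 and 7 falls of 10 and no rise. Of all genes, 12.4%, 18.5% and 5.15% fell at 24 h, 48 h and 96 h, so the 2 falls of 10 at 48 h were near that share. The corona and motor genes gave 4, 2 and 7 falls of 8 and 1 rise, of the motor gene CENPE at 48 h (0.35, edgeR adjusted p = 0.0236), where 14.8% of all genes rose. CENPE fell by 0.92 on the log2 scale at 96 h (edgeR adjusted p = 4.1e-05). The chromosomal passenger and shugoshin genes gave 4, 2 and 6 falls of 6.

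Together these 38 genes gave 20 falls at 24 h, 14 falls and 1 rise at 48 h, and 27 falls at 96 h, where 12.4%, 18.5% and 5.15% of all genes fell. The 10 genes of G2 and M phase, CCNB1 and PLK1 among them, gave 10, 8 and 10 falls, with medians of -0.57, -0.28 and -0.83. All lists were drawn up with earlier results of these data known, so the counts are a description beside the shares of all genes given above.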

How the data were processed

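The authors deposited estimated counts (expected counts) per transcript, made with kallisto per the submitters' processing notes, which also name DESeq2 and hg19. They are whole numbers as deposited, and the 18 largest, of 7 or more digits, end in 0. Versions, index and strand setting: not given in the sources used here. By identifier, 156584 of 166096 transcripts matched GENCODE 29 (GRCh38), and the remaining 9512 (2.75% to 3.40% of counts) were left out. Gene sums (31496 genes) were TMM-scaled, filtered by filterByExpr (19836 genes) and tested with edgeR 4.0.16 in R 4.3.3 (robust glmQLFit, glmQLFTest). All 16 libraries entered 1 fit of 6 group means, leaving 10 residual degrees of freedom, with Benjamini-Hochberg adjustment and a threshold of 0.05. Transcript usage was tested with diffSpliceDGE. Because most of its calls on simulated data were false, a limma 3.58.1 log-ratio test was added after seeing the data. DESeq2 1.42.0 served as an alternative. Replicate libraries differed beyond sampling noise (chi-square per degree of freedom 7.28 to 51), and none were merged. Precision rests on the spread between 2 or 3 libraries. Named genes were the 10 centromere genes, NORAD, listed kinetochore genes, genes within 100 kb of CENPT, transcripts holding at least 10% of their gene, and the 5 genes most correlated. CENPT transcripts under 10% were named after their values were seen. Genes and lists were chosen with earlier results of these data known.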

Additional observations from a re-analysis of the deposited data

Results flagged for a closer look

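The knockdown difference of 4 of the 9 genes other than CENPT changed between 24 h, 48 h and 96 h by the edgeR F test of the 3 differences, adjusted over 19836 genes. CENPW (adjusted p = 0.000429) had log2 fold changes of -0.52, 0.15 and -0.79 at the 3 times. CENPA (adjusted p = 0.003) had -0.35, -0.13 and -0.77. CENPI (adjusted p = 0.0115) had -0.43, 0.49 and -1.32, on counts as low as 47 in a library. CENPN (adjusted p = 0.0351) had -0.63, -0.17 and -0.56, and lost its call under RLE scaling (edgeR adjusted p = 0.0555), with no filter (0.102) and without 10 of the 16 libraries in turn. No groups of 4 or more libraries exist, so single libraries were not tested as outliers.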

How the results depend on the processing

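Among values of single genes, 594 kept direction and side of the threshold under settings other than leaving out a library, 43 lost the threshold, 16 gained it, 8 moved and 1 reversed. The reversed value was CENPT between 24 h and 96 h in wild type, -0.86 with protein-coding transcripts only; the cause was not tested. CENPT in knockdown spanned log2 fold changes of 1.28 to 3.69, 1.64 to 4.08 and 0.67 to 4.44 at the 3 times over all settings. The upper end of each span came with protein-coding transcripts only, on few wild-type counts. With only the libraries of 1 time, 4072 genes passed at 48 h (6591 with all) and 3450 at 96 h (2083 with all). The difference between times (1872 genes) gave 2846 under DESeq2. At 24 h the share of calls that rose was 29.25%, against 75.36% under total-count scaling, which moved the median of all genes from -0.02 to 0.19, 53.74% under upper-quartile scaling, 49.21% under abundance-dependent scaling, 43.25% with 24 h libraries and 39.42% without a filter. At 48 h it was 44.42%, against 68.91% and 64.27% under total-count and upper-quartile scaling. The 9 falls at 96 h were kept under every scaling, 7 to 9 in other settings, and 5 to 9 with a library left out.

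Replicate numbers did not pair the samples (same-number correlations -0.228 to 0.0612). With a replicate block within each time, 900 genes differed between times, and 4 of the 9 fell at 24 h and 7 at 96 h. Another model used a block for each replicate number over all groups. With it, usage calls were 127, 276 and 91 at 24 h, 48 h and 96 h (199, 520 and 195 without it). Single calls lost with the block within time were CENPN between times (edgeR adjusted p = 0.089), CENPC at 96 h (0.0656), CENPH at 24 h (0.066) and 96 h (0.0538), CENPU at 24 h (0.0558) and CENPI in the mean of the 3 times (0.0611). Those lost in wild type with the block over groups were CENPC from 24 h to 48 h (edgeR adjusted p = 0.0621) and CENPI between 24 h and 96 h (0.0551). By limma usage calls were 55, 35 and 9, and by the gene F test 88 at 96 h and 2032 in wild type between 24 h and 96 h (1124 by Simes).

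Leaving out each library gave 1500 to 4558 genes at 24 h, 4845 to 8869 at 48 h, 1239 to 3069 at 96 h, 5957 to 8646 for the mean and 1052 to 5035 for the difference between times. In wild type it gave 6442 to 9879 (48 h over 24 h), 8148 to 10172 (96 h over 48 h) and 4490 to 8276 (96 h over 24 h). Usage calls were 124 to 241, 333 to 1203, 110 to 220 and 626 to 1347. The 5035 and the 1203 came without knockdown replicate 3 at 48 h. Low counts limit CENPI, with 47 counts in its lowest library.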
